A study of Mus musculus with 19 samples.

Results

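CD4 T cells lacking Tet2 because of a blood-wide Cre were compared with CD4 T cells lacking Tet2 because of a T cell Cre, gene by gene. The comparison took 6 of the 19 libraries of the series: 3 Vav1CreTet2KO libraries and 3 Cd4CreTet2KO libraries, from 6 animals. All 25639 genes of the CD4 table were considered, and 13554 passed the filter on low counts and were tested. In Vav1CreTet2KO mice the Vav1 promoter drives Cre across blood-forming cells and their descendants, so that myeloid and lymphoid cells alike carry the deletion. In Cd4CreTet2KO mice the Cd4 promoter drives Cre in developing T cells, so that other blood cells keep the gene. Tet2fl/fl mice, which carry the same floxed gene without Cre, gave 3 further CD4 libraries that are shown as levels and used to estimate the spread. All animals bore liver metastases that were taken on day 30 after Venus-AKTPM/LOH colorectal cancer cells had been injected into the spleen. Ages were not among the labels. Within the tumours, leukocytes were sorted as CD45, CD3ε and CD4 positive cells and sequenced as total RNA in bulk, and each library of a genotype came from its own animal.

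TET2 oxidises the methyl group of cytosines in DNA, a step towards removing the methyl mark, and its loss in blood stem cells is a common event in clonal hematopoiesis. CD4 T cells in tumours include helper cells, which release cytokines such as interferon gamma, and regulatory cells, which carry the factor Foxp3 and restrain other T cells. Chronic stimulation in a tumour drives T cells towards exhaustion, a state of reduced function marked by inhibitory receptors such as PD-1, the product of Pdcd1.

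The libraries of the blood-wide knockout were far less alike than those of the T cell knockout. Reads on genes numbered 707866, 14539928 and 7501026 in Vav1CreTet2KO replicates 1, 2 and 3, against 15543888 to 17575534 in the Cd4CreTet2KO libraries and 9096532 to 16451285 in Tet2fl/fl. Replicate 1 of Vav1CreTet2KO, the shallowest, had reads on 7761 genes. The median correlation of a library with the others of its own group, across genes, was 0.728 to 0.793 in Vav1CreTet2KO, 0.938 to 0.945 in Cd4CreTet2KO and 0.883 to 0.890 in Tet2fl/fl. Replicate 3 of Vav1CreTet2KO had a median correlation of 0.784 with its own group and of 0.891 with the other CD4 libraries as a whole. The labelled cell type was checked by its markers. Cd3e, which encodes the ε chain of CD3, had 583, 568 and 539 CPM in Vav1CreTet2KO and 456, 336 and 473 CPM in Cd4CreTet2KO (CPM, counts scaled to a common library size). Cd4 stood at 306, 590 and 990 CPM in Vav1CreTet2KO, against 775, 664 and 688 CPM in Cd4CreTet2KO, while Cd8a did not exceed 1.89 CPM in any library of either knockout. Cd4 was lowest in Vav1CreTet2KO replicate 1.

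Tet2 itself (chromosome 3) had 99.7, 115 and 67.0 CPM in Vav1CreTet2KO, against 91.8, 171 and 110 CPM in Cd4CreTet2KO and 83.8 to 145 CPM in Tet2fl/fl. The groups overlapped, with a log2 fold change of -0.41 (SE 0.38; edgeR quasi-likelihood test, Benjamini-Hochberg adjusted p = 0.774). Counts were summed over the gene, and a missing exon would not show in them, so the genotype labels are not checked by this value. The related enzymes Tet1 and Tet3 had log2 fold changes of -0.00 and -0.46, with overlapping groups.

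Between the knockouts, 9 of 13554 genes passed the test at an adjusted p under 0.05, or 0.0664% of those tested. Of these, 6 were higher (0.0443%) and 3 lower (0.0221%) in Vav1CreTet2KO. At an unadjusted p under 0.05 the count was 1449, or 10.7% of tested genes, with 763 higher (5.63%) and 686 lower (5.06%). The groups did not overlap in 751 genes that were higher (5.54%) and in 1895 that were lower (14.0%). The median log2 fold change of all tested genes was -0.19, and 42.2% of them lay above 0. The number of called genes rested on single libraries and on the tool. It was 719 without Vav1CreTet2KO replicate 3 (348 higher, 371 lower), 22 without replicate 1 and 7 without replicate 2, and DESeq2 called 516. Of the 9 genes, 9 were called again without Vav1CreTet2KO replicate 1, 4 without replicate 2 and 9 without replicate 3. The same counts were 5, 2 and 5 without Cd4CreTet2KO replicates 1, 2 and 3, and 3 without each Tet2fl/fl library in turn.

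Genes called as higher included ribosomal ones, gene models and a meiosis gene. Rps29 (chr12:69204496-69205960 in the table's coordinates), a protein of the small ribosomal subunit, had 1309, 930 and 445 CPM in Vav1CreTet2KO, against 230, 170 and 205 CPM in Cd4CreTet2KO. All 3 libraries were higher, by 2.15 on the log2 scale (SE 0.34; edgeR adjusted p = 0.0390). Rps29 had 299 to 380 CPM in Tet2fl/fl, between the 2 knockouts. Rps18-ps6 (chr13:97896580-97897140), named as a pseudogene of the small-subunit protein S18, had 261, 248 and 175 CPM in Vav1CreTet2KO. It had 9.22, 5.21 and 2.14 CPM in Cd4CreTet2KO and 75.8 to 145 CPM in Tet2fl/fl, and the log2 fold change was 5.36 (SE 0.55; edgeR adjusted p = 0.000883). Reads of such a copy and of its parent gene cannot be told apart with certainty in a table of counts.

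Gm5148 (chr3:37768339-37778639), a gene model with no assigned name, showed the smallest p. It had 1591, 1413 and 279.5 CPM in Vav1CreTet2KO, against 7.05, 2.42 and 11.1 CPM in Cd4CreTet2KO and 170 to 200 CPM in Tet2fl/fl. The groups were far apart, with a log2 fold change of 7.32 (SE 0.71; edgeR adjusted p = 0.000845), and the control libraries lay between them. Gm45234 (chr6:124716152-124732984), another such model, had 0, 65.3 and 125 CPM in Vav1CreTet2KO, 0 in all Cd4CreTet2KO libraries and 63.5 to 204 CPM in Tet2fl/fl. Replicate 1 of Vav1CreTet2KO was therefore at the level of the Cd4CreTet2KO libraries. Pooled over the libraries of a group, its 1770 reads in Vav1CreTet2KO were at least 1441-fold higher than the limit that 0 reads allow in Cd4CreTet2KO, taken as 3 counts over the group (edgeR adjusted p = 0.0291). Ccnb1ip1 (chr14:51026705-51045189), which encodes a ubiquitin ligase of meiotic crossing over, had 1248, 1367 and 729 CPM in Vav1CreTet2KO. It had 378, 270 and 292 CPM in Cd4CreTet2KO and 136 to 212 CPM in Tet2fl/fl, so that both knockouts lay above the control libraries. Its log2 fold change between the knockouts was 1.83 (SE 0.30; edgeR adjusted p = 0.0418).

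The genes called as lower encode a growth hormone and adhesion proteins. Gh (chr11:106191097-106192691), the pituitary growth hormone, had no read in any Vav1CreTet2KO library or any Tet2fl/fl library, against 69.9, 110 and 103 CPM in Cd4CreTet2KO. Those were 1221, 2006 and 1640 reads, and the pooled level in Vav1CreTet2KO was at least 664-fold lower, with the limit of 3 counts over the group (edgeR adjusted p = 0.00894). Most low counts were even, so that a read pair may have added 2 counts. With a limit of 6 counts the bounds are 332-fold for Gh and 720.3-fold for Gm45234. Of 2 tested pituitary hormone genes, Gh was the one called. In CD8 libraries Gh had 0.626 and 0.0589 RPKM (reads per kilobase, scaled to library size) in the 2 Cd4CreTet2KO animals that gave no CD4 library. It was listed at 0 in all other CD8 libraries, among them those of the 2 Cd4CreTet2KO animals whose CD4 cells held Gh reads. Lamc1 (chr1:153094668-153208532), a laminin chain of basement membranes, had 66.0, 137 and 76.7 CPM in Vav1CreTet2KO, against 356, 661 and 415 CPM in Cd4CreTet2KO and 218 to 307 CPM in Tet2fl/fl. All 3 libraries were lower, by -2.34 on the log2 scale (SE 0.35; edgeR adjusted p = 0.0265). Itgav (chr2:83554741-83637260), the integrin chain αV that pairs with several β chains, had 98.3, 151 and 103 CPM in Vav1CreTet2KO. It had 318, 752 and 461 CPM in Cd4CreTet2KO and 214 to 335 CPM in Tet2fl/fl, a log2 fold change of -2.11 (SE 0.35; edgeR adjusted p = 0.0418).

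**Figure D1:**
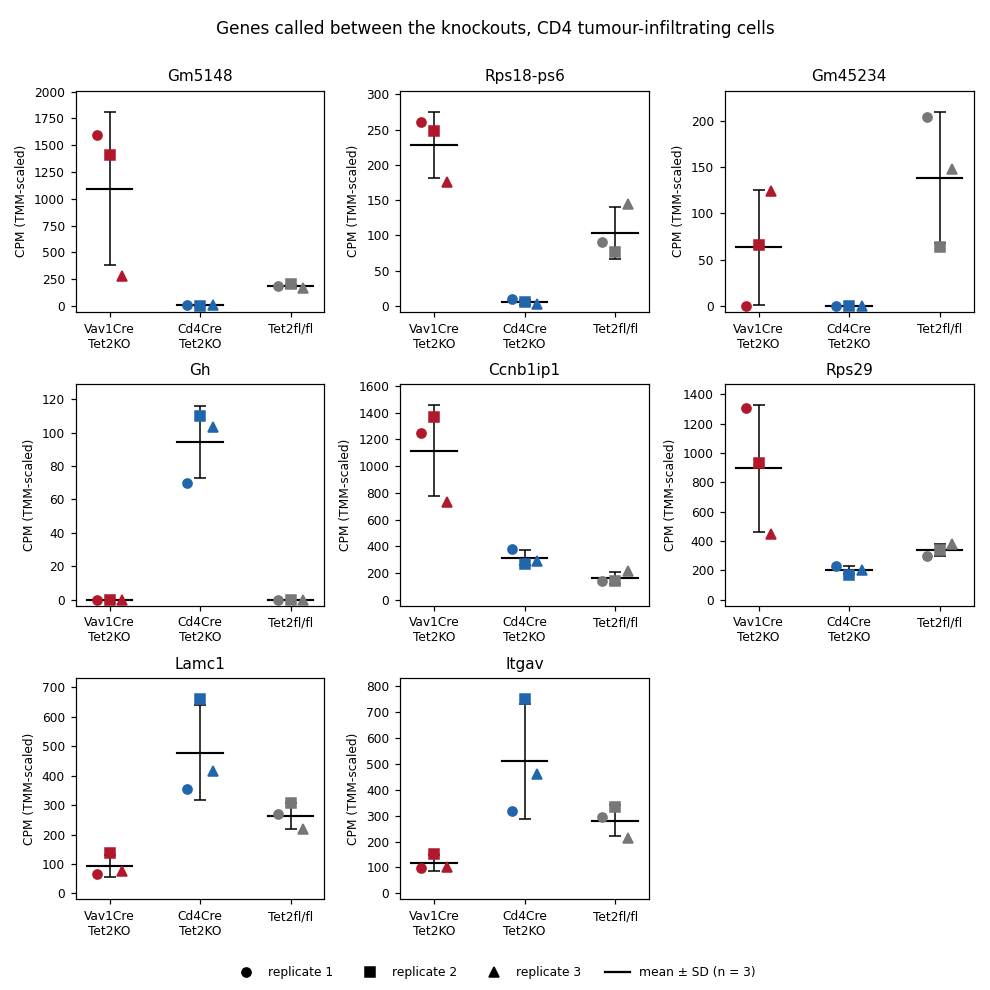
Level of 8 called genes in the 9 CD4 libraries, in CPM (linear axes from 0), with a point per library and the mean ± SD of each genotype as a bar. Vav1CreTet2KO and Cd4CreTet2KO points do not overlap except in Gm45234, with Vav1CreTet2KO replicate 1 at 0.

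CD8 libraries came from all 3 Vav1CreTet2KO animals and from 2 of the 3 Cd4CreTet2KO animals, beside 2 other Cd4CreTet2KO animals. Their deposited values are RPKM and were normalized apart, so the values are set side by side without a test. Of the 9 genes, 2 had CD8 libraries that did not overlap in the same direction. Rps29 had 1549, 408 and 491 RPKM in CD8 Vav1CreTet2KO, against 270 to 369 RPKM in CD8 Cd4CreTet2KO. Ccnb1ip1 had 504, 132 and 169 RPKM in CD8 Vav1CreTet2KO, against 50.6 to 124 RPKM in CD8 Cd4CreTet2KO. Gm5148, which separated the CD4 groups most clearly, had 607, 100 and 85.1 RPKM in CD8 Vav1CreTet2KO, against 39.8 to 97.8 RPKM in CD8 Cd4CreTet2KO, and so overlapped.

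Ribosomal protein genes as a class stood higher in the blood-wide knockout. Of the 77 tested, 1 was called (Rps29), 58 were higher and 0 lower at an unadjusted p under 0.05, and the groups did not overlap in 46, all higher. The shares over all tested genes were 5.63% higher at that threshold and 5.54% higher without overlap. Their median log2 fold change was 1.07, against -0.19 over all tested genes. Rps27 had 1220.1, 1061 and 509 CPM in Vav1CreTet2KO, against 299.8, 223 and 237 CPM in Cd4CreTet2KO (log2 fold change 1.87, SE 0.33; edgeR adjusted p = 0.0698). Rps26 had 1992, 2067 and 744 CPM in Vav1CreTet2KO, against 542, 369 and 335 CPM in Cd4CreTet2KO (log2 fold change 1.95, SE 0.35; edgeR adjusted p = 0.0698). In Tet2fl/fl Rps27 had 323 to 519 CPM, which overlapped with Vav1CreTet2KO, and Rps26 had 506 to 562 CPM, which overlapped with Cd4CreTet2KO. Together the class took 9.87%, 9.76% and 7.23% of reads in Vav1CreTet2KO, against 6.20%, 4.05% and 4.35% in Cd4CreTet2KO (exact two-sided permutation test, p = 0.1, the smallest that 3 against 3 can give). The class took 5.02% to 6.77% in Tet2fl/fl. Of 33 tested translation initiation and elongation factors, 12 were higher and 0 lower at the unadjusted threshold.

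Mammalian genes of this class typically begin transcription inside a run of pyrimidines, the element through which their translation is controlled. The bases from 20 before to 20 after the start are shown for the pair named above that RefSeq's promoter table (GRCm38.p6) holds, because the class holds the most genes of the lists that stood higher. Capitals mark the letters CTTTC.
Rps27, chr3:90213629-90213668, minus strand: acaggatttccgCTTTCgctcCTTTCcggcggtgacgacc
Rps26, chr10:128626487-128626526, minus strand: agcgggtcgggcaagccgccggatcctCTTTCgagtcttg
Within 20 bases of the start, on the strand of the gene, these letters occurred in 18 of the 57 ribosomal protein genes found in the table (31.6%) and in 6.64% of the 27025 genes it holds. This describes the letters and not a site of control.

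Genes of mitochondrial respiration lay in the same direction. All 13 mitochondrially encoded genes were higher at an unadjusted p under 0.05 and none was called, with a median log2 fold change of 0.98. mt-Nd2, a subunit of complex I, had 1619, 1338 and 801 CPM in Vav1CreTet2KO, against 418, 490 and 464 CPM in Cd4CreTet2KO (log2 fold change 1.45, SE 0.27; edgeR adjusted p = 0.0751). Reads on these genes made up 3.43%, 2.71% and 1.96% of each library in Vav1CreTet2KO, against 1.22%, 1.68% and 1.55% in Cd4CreTet2KO (exact two-sided permutation test, p = 0.1, the smallest possible). Of the 45 tested nuclear genes of oxidative phosphorylation, 0 were called, 21 were higher and 0 lower at the unadjusted threshold, and the median was 1.30. Histone genes had 12 of 19 higher and 0 lower, with a median of 1.20, and proteasome genes 9 of 31 higher and 0 lower. At the same threshold 5.63% of all tested genes were higher.

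Some genes of these classes are short, and short genes as a whole stood higher in the Vav1CreTet2KO libraries. Genes of up to 1.5 kb of exonic length took 12.8%, 11.9% and 5.95% of reads in Vav1CreTet2KO, against 5.37%, 4.74% and 4.98% in Cd4CreTet2KO and 4.56% to 5.91% in Tet2fl/fl. Genes over 6 kb took 34.1%, 35.3% and 41.7% in Vav1CreTet2KO, against 42.9%, 46.9% and 44.5% in Cd4CreTet2KO. Replicates 1 and 2 of Vav1CreTet2KO thus stood apart in length, and replicate 3 lay close to the other genotypes. Among genes with a mean log2 CPM above 3, the median log2 fold change was 1.44 under 0.75 kb (121 genes), 0.86 from 0.75 to 1.5 kb, 0.18 from 1.5 to 3 kb, -0.15 from 3 to 6 kb and -0.26 over 6 kb. Exonic length joins all annotated exons of a gene and can exceed the length of its RNA. Taking out its trend may therefore leave part of an effect of length in place. With the trend on length taken out of each library, 39 of the 77 ribosomal protein genes were still higher at the unadjusted threshold, with a median of 0.53. In that setting 0 of the 13 mitochondrially encoded genes and 11 of the 45 nuclear oxidative phosphorylation genes were higher, with medians of -0.08 and 0.41. The log2 fold change of Rps29 was then 0.83 (edgeR adjusted p = 0.249). Itgav had -1.80 and Ccnb1ip1 1.26 (edgeR adjusted p = 0.0616 for both), so neither was called in that setting, while Lamc1 had -2.10 (edgeR adjusted p = 0.0241). The setting called 6 genes, of which 5 were among the 9. The same setting left 4 of 19 histone genes, 5 of 31 proteasome genes and 8 of 33 translation factors higher at the unadjusted threshold.

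**Figure D2:**
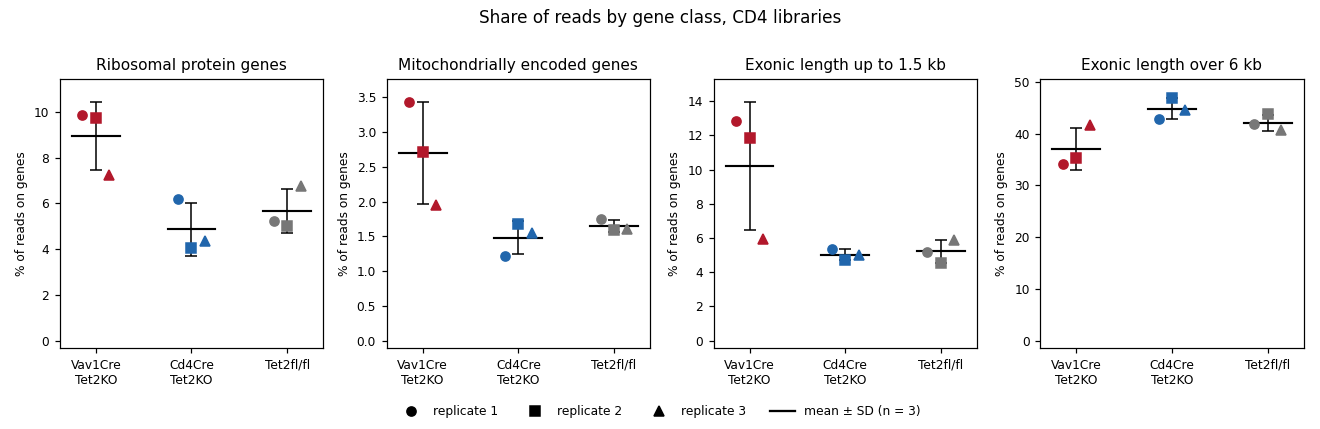
Share of reads on genes taken by 2 gene classes and 2 length classes in each CD4 library (points), with the mean ± SD per genotype; axes run from 0. All 3 Vav1CreTet2KO libraries lie above all Cd4CreTet2KO libraries for ribosomal protein, mitochondrial and short genes, and below them for long genes, with replicate 3 nearest.

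**Figure D3:**
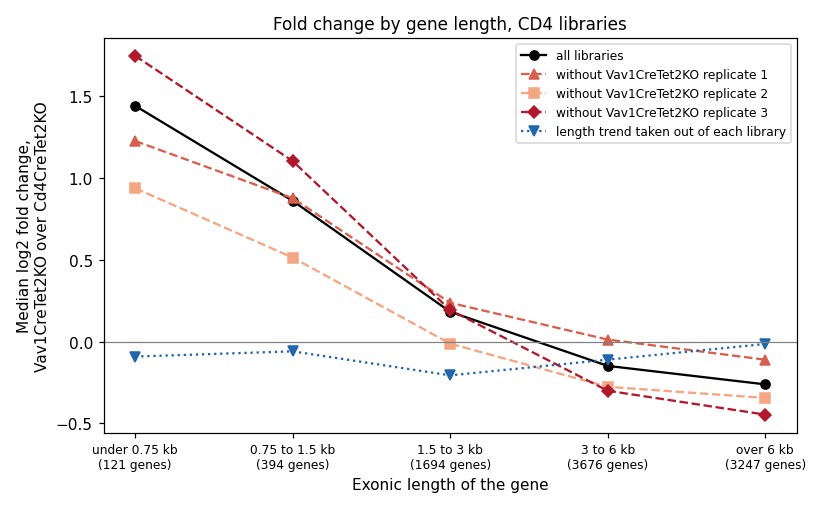
Median log2 fold change, Vav1CreTet2KO over Cd4CreTet2KO, in 5 classes of exonic length, with all libraries, without each Vav1CreTet2KO library and with the length trend taken out. The black line runs from 1.44 in the shortest class to -0.26 in the longest, and the blue dotted line stays between -0.21 and -0.01.

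Among MHC class II genes, H2-Ab1, H2-Aa, H2-Eb1 and the invariant chain Cd74 stood higher in the blood-wide knockout. MHC class II molecules present peptides to CD4 T cells and in mice are made by dendritic cells, macrophages and B cells, while mouse T cells make little. Of 11 tested genes of the list none was called and 4 were higher at an unadjusted p under 0.05, all 4 with groups that did not overlap. Over all tested genes, 5.63% were higher at that threshold and 5.54% were higher without overlap. The log2 fold change lay below 0 in 3 of the 11, down to -2.46. H2-Ab1, the β chain of I-A, had 653, 817 and 275 CPM in Vav1CreTet2KO, against 134, 53.8 and 133 CPM in Cd4CreTet2KO and 57.7 to 127 CPM in Tet2fl/fl. Each Vav1CreTet2KO library exceeded every other library (log2 fold change 2.44, SE 0.46; edgeR adjusted p = 0.0751, and 0.00658 without Vav1CreTet2KO replicate 3). H2-Aa, its α chain, had 440, 229 and 173 CPM in Vav1CreTet2KO, against 60.9, 30.8 and 64.4 CPM in Cd4CreTet2KO. The list took 0.258%, 0.215% and 0.145% of reads in Vav1CreTet2KO, against 0.0709%, 0.0372% and 0.0700% in Cd4CreTet2KO.

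Class II promoters are known for a Y box, an inverted CCAAT element, near the start. The 100 bases before the start of H2-Aa and H2-Eb1, from RefSeq's table (GRCm38.p6), are shown because both genes separated the groups; capitals mark CTGATTGG.
H2-Aa, chr17:34287824-34287923, minus strand: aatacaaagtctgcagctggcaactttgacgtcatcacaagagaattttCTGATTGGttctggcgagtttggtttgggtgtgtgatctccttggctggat
H2-Eb1, chr17:34305767-34305866, plus strand: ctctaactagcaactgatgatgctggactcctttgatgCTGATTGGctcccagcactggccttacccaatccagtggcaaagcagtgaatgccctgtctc
Counting both strands of the 300-base promoters, the letters were in 4 of the 8 list members found in the table (50.0%) and in 4.70% of all its genes.

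Markers of macrophages and of cells with Fc receptor adaptors stood higher in the same libraries than in Cd4CreTet2KO. Of the 25 macrophage and monocyte genes in the table, 17 were tested, 8 were higher and 1 lower at the unadjusted threshold, and 0 were called. Apoe had 273, 226 and 42.1 CPM in Vav1CreTet2KO, against 20.6, 15.5 and 20.1 CPM in Cd4CreTet2KO and 16.5 to 150 CPM in Tet2fl/fl. Tyrobp, an adaptor of myeloid and natural killer receptors, had 189, 228 and 80.2 CPM in Vav1CreTet2KO, against 22.6, 10.9 and 14.2 CPM in Cd4CreTet2KO (log2 fold change 3.38, SE 0.71; edgeR adjusted p = 0.0919). The summed share of the macrophage list was 0.0932%, 0.0856% and 0.0562% of reads in Vav1CreTet2KO, against 0.0343%, 0.0264% and 0.0399% in Cd4CreTet2KO. In Tet2fl/fl that share was 0.0553%, 0.0194% and 0.0633%, so the control libraries overlapped with Vav1CreTet2KO. Lyz2, a macrophage marker, had 16.2, 91.3 and 31.7 CPM in Vav1CreTet2KO and 11.2, 1.37 and 5.03 CPM in Cd4CreTet2KO. Its level in Tet2fl/fl was 57.0, 1.05 and 123 CPM. Natural killer and innate lymphoid genes took 0.0201% to 0.0318% in Vav1CreTet2KO, against 0.00563% to 0.00747% in Cd4CreTet2KO. Of the 11 tested in that list, 2 were higher and 1 lower at the unadjusted threshold. The higher ones were the adaptors Tyrobp and Fcer1g, which myeloid cells share. Fcer1g had 57.9, 97.4 and 32.7 CPM in Vav1CreTet2KO, against 5.79, 1.54 and 7.42 CPM in Cd4CreTet2KO. Eomes was the lower one, with no read in Vav1CreTet2KO, against 2.63, 4.94 and 1.51 CPM in Cd4CreTet2KO. Conventional dendritic cell genes took 0.0370%, 0.0699% and 0.0886% of reads in Vav1CreTet2KO, against 0.0503%, 0.0293% and 0.0400% in Cd4CreTet2KO, with 3 of 13 higher and 0 lower at the unadjusted threshold. Plasmacytoid dendritic cell genes took 0.0631%, 0.185% and 0.221% in Vav1CreTet2KO, against 0.120%, 0.0705% and 0.109% in Cd4CreTet2KO, with 3 of 16 higher and 0 lower. Both dendritic lists overlapped between the knockouts and were lowest, within Vav1CreTet2KO, in replicate 1. Cd79a, which defines B cells, did not exceed 1.35 CPM in Vav1CreTet2KO or 3.08 CPM in Cd4CreTet2KO. B cell and plasma cell genes together took 0.0174%, 0.0248% and 0.0507% of reads in Vav1CreTet2KO, against 0.0286%, 0.0339% and 0.0340% in Cd4CreTet2KO, an overlap. Fcrla of that list had 0, 49.0 and 17.0 CPM in Vav1CreTet2KO, against 12.9, 1.87 and 6.35 CPM in Cd4CreTet2KO. In bulk libraries, more cells of a type and more RNA per cell cannot be told apart, and the part of the myeloid and dendritic genes in the class II result was not tested.

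Genes of regulatory T cells lay lower in the blood-wide knockout without passing the test. Of 21 tested, 0 were called and 0 were higher at an unadjusted p under 0.05, while 9 were lower, or 16 with the length trend taken out. The median was -0.79, or -1.39 with the length trend taken out. Foxp3, the defining factor, had 70.0, 535 and 238 CPM in Vav1CreTet2KO, against 525, 1088 and 788 CPM in Cd4CreTet2KO and 551 to 787 CPM in Tet2fl/fl. The groups overlapped through Vav1CreTet2KO replicate 2, and the log2 fold change was -1.50 (SE 0.51; edgeR adjusted p = 0.306). Itgae, the integrin αE that holds T cells in epithelium, had 99.7, 238 and 91.4 CPM in Vav1CreTet2KO, against 458, 627 and 644 CPM in Cd4CreTet2KO, with no overlap (log2 fold change -2.00, SE 0.36; edgeR adjusted p = 0.0698). Ikzf2, the Helios factor of regulatory cells, had 277, 296 and 169 CPM in Vav1CreTet2KO, against 450, 841 and 604 CPM in Cd4CreTet2KO (log2 fold change -1.35, SE 0.30; edgeR adjusted p = 0.102). Il1rl1, the receptor of interleukin 33, had 5.39, 96.8 and 63.6 CPM in Vav1CreTet2KO, against 271, 281 and 300 CPM in Cd4CreTet2KO, a separation in every library. Such a separation in the lower direction held for 14.0% of all tested genes. Ctla4 overlapped widely, at 564, 1334 and 294 CPM in Vav1CreTet2KO, against 697, 1403 and 898 CPM in Cd4CreTet2KO.

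Several lists of T cell stimulation lay in the same direction, but not all. The T cell receptor complex and its proximal signalling counted 4 higher and 1 lower of 20 at the unadjusted threshold, with a median of 0.12, which was -0.13 with the length trend taken out and -0.02 without Vav1CreTet2KO replicate 3. Costimulatory receptors and ligands counted 3 higher and 3 lower of 15, with a median of -0.21. Of 17 tested NF-kB pathway genes, 8 were lower and 0 higher at the unadjusted threshold, with a median of -0.68 and 0 called. Nfkbie, an inhibitor that NF-kB itself induces, had 52.5, 76.2 and 86.9 CPM in Vav1CreTet2KO, against 169, 183 and 231 CPM in Cd4CreTet2KO (log2 fold change -1.42, SE 0.32; edgeR adjusted p = 0.0993). Genes induced early by the T cell receptor counted 9 lower and 0 higher of 29, with a median of -0.49. Dusp4, a phosphatase that feeds back on MAP kinases, had 225, 298 and 168 CPM in Vav1CreTet2KO, against 593, 620 and 757 CPM in Cd4CreTet2KO. The interleukin 2 and STAT5 list counted 5 lower and 0 higher of 17, led by Jak3, the kinase of the common γ chain, with 97.0, 141 and 121 CPM in Vav1CreTet2KO, against 245, 282 and 335 CPM in Cd4CreTet2KO. Of all tested genes, 14.0% were lower without overlap. Dusp4 and Jak3 had no overlap between the knockouts. Their log2 fold changes were -1.51 (SE 0.35; edgeR adjusted p = 0.111) for Dusp4 and -1.26 for Jak3 (SE 0.27; edgeR adjusted p = 0.0981).

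Among inhibitory receptors, 15 were tested, 1 was higher and 3 lower at the unadjusted threshold, with a median of -0.07. Pdcd1 (PD-1) had 63.3, 76.7 and 52.9 CPM in Vav1CreTet2KO, against 165, 287 and 181 CPM in Cd4CreTet2KO and 143 to 193 CPM in Tet2fl/fl. Each Vav1CreTet2KO library lay below every other CD4 library, with a log2 fold change of -1.71 (SE 0.33; edgeR adjusted p = 0.0751). The adjusted p of Pdcd1 was 0.0241 with the length trend taken out and 0.0231 without Vav1CreTet2KO replicate 3. In the CD8 libraries of the knockouts Pdcd1 overlapped, at 27.5, 61.6 and 13.3 RPKM in Vav1CreTet2KO against 9.08 to 38.4 RPKM in Cd4CreTet2KO. Tox, a factor of exhausted T cells, had 124, 105 and 95.6 CPM in Vav1CreTet2KO, against 113, 149 and 107 CPM in Cd4CreTet2KO. Its log2 fold change was -0.19 (SE 0.31; edgeR adjusted p = 0.885), which turned to 0.09 with the length trend taken out. Tox2 had 16.2, 19.0 and 16.7 CPM in Vav1CreTet2KO, against 20.4, 63.7 and 31.4 CPM in Cd4CreTet2KO, without overlap (edgeR adjusted p = 0.477). A lower level without overlap was found in 14.0% of all tested genes. The 16 exhaustion regulators counted 2 lower and 0 higher, with a median of -0.15.

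Some helper effector genes leaned the other way. Of 15 tested Th1 and effector genes, 4 were higher (2 with the length trend taken out) and 0 lower at the unadjusted threshold, with 0 called and a median of 0.30. The groups did not overlap in 4 that were higher and in 2 that were lower, and 5 of the 15 lay below 0. Over all tested genes, 5.54% were higher and 14.0% lower without overlap, and 5.63% were higher at the unadjusted threshold. Ifng had 87.5, 91.8 and 121.8 CPM in Vav1CreTet2KO, against 26.8, 14.2 and 37.9 CPM in Cd4CreTet2KO and 37.0 to 68.8 CPM in Tet2fl/fl. Its groups did not overlap, at a log2 fold change of 1.94 (SE 0.49; edgeR adjusted p = 0.152), or 1.28 with the length trend taken out. Ccl5, a chemokine of effector T cells, had 471, 375 and 171 CPM in Vav1CreTet2KO, against 144, 95.0 and 147 CPM in Cd4CreTet2KO, and in CD8 libraries too the knockouts did not overlap. Its log2 fold change of 1.39 was 0.30 with the length trend taken out (edgeR adjusted p = 0.755). Cd40lg, the helper signal to antigen-presenting cells, had 135, 69.0 and 183 CPM in Vav1CreTet2KO, against 56.4, 17.8 and 61.4 CPM in Cd4CreTet2KO. The log2 fold change of Cd40lg was 1.51, or 0.95 with the length trend taken out. In CD8 libraries Cd40lg had 12.5, 10.9 and 7.82 RPKM in Vav1CreTet2KO, against 0.647 to 3.30 RPKM in Cd4CreTet2KO. Naive and memory genes counted 5 higher and 0 lower of 20, with a median of 0.38 that rested on Vav1CreTet2KO replicate 3. Their summed level was 3075, 2711 and 7660.5 CPM in Vav1CreTet2KO, against 4322, 3245 and 3514 CPM in Cd4CreTet2KO, so that 2 of the 3 Vav1CreTet2KO libraries lay below every Cd4CreTet2KO library. Without replicate 3 the median was 0.08, and 0 genes were called higher and 3 lower. Tcf7, which marks stem-like T cells, overlapped at 395, 271 and 1634 CPM in Vav1CreTet2KO, against 777, 291 and 528 CPM in Cd4CreTet2KO. Its log2 fold change of 0.53 became -0.70 without Vav1CreTet2KO replicate 3.

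Type 2 genes counted 3 lower and 0 higher of 9, with a median of -2.30, the value of Il1rl1, or -1.41 without Cd4CreTet2KO replicate 1. Their summed level was 452.5, 427 and 607 CPM in Vav1CreTet2KO, against 974, 1049 and 1131 CPM in Cd4CreTet2KO. Il1rl1 and Gata3 are also on the regulatory T cell list. Gata3 had 179, 144 and 196 CPM in Vav1CreTet2KO, against 230, 364 and 301 CPM in Cd4CreTet2KO. Type I interferon genes counted 5 higher and 0 lower of 34, or 1 higher with the length trend taken out, with a median of 0.19. Isg15, an interferon-induced ubiquitin-like protein, had 90.2, 45.1 and 11.9 CPM in Vav1CreTet2KO, against 4.35, 3.84 and 5.47 CPM in Cd4CreTet2KO (edgeR adjusted p = 0.394). Cell cycle lists of S phase (22 tested) and mitosis (24 tested) had medians of 0.29 and 0.30. They had 0 and 2 genes higher at the unadjusted threshold and none lower, where 5.63% of all tested genes were higher. Heat shock genes took 1.18%, 1.19% and 1.63% of reads in Vav1CreTet2KO and 1.32%, 1.28% and 1.46% in Cd4CreTet2KO, an overlap, with 3.07% ± 0.591 in Tet2fl/fl (SD, n = 3).

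**Figure D4:**
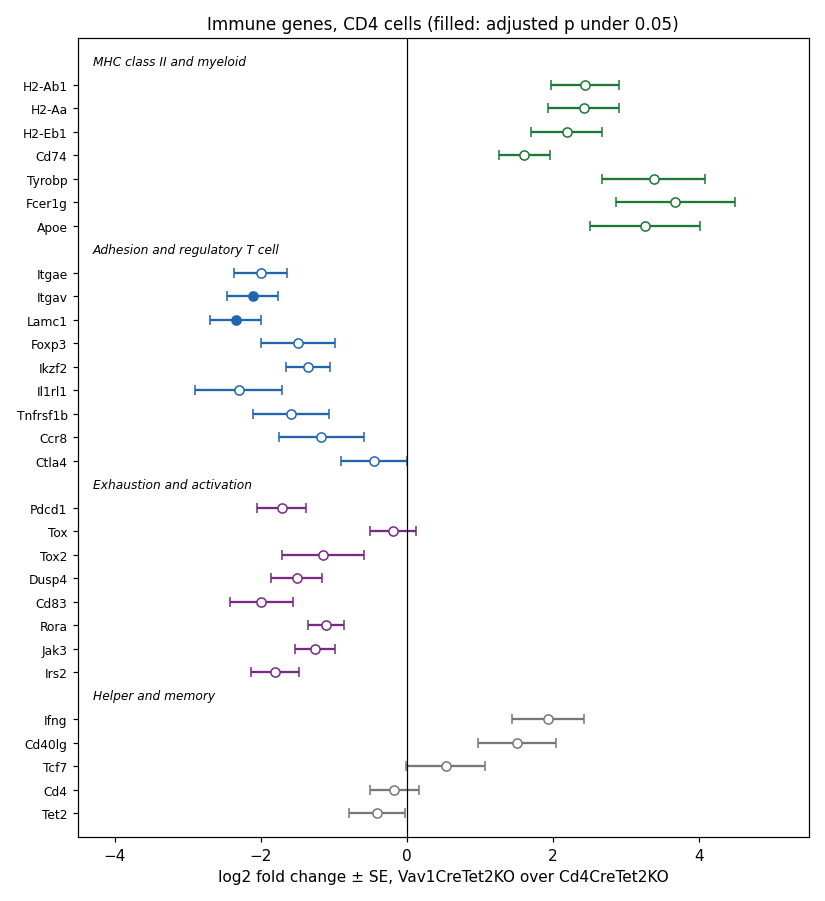
Log2 fold change, Vav1CreTet2KO over Cd4CreTet2KO, of 29 immune genes with its standard error from edgeR, where filled points passed the test. MHC class II and myeloid genes lie to the right and Pdcd1, Itgae, Itgav and Lamc1 to the left, while only Itgav and Lamc1 among those drawn are filled.

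**Figure D5:**
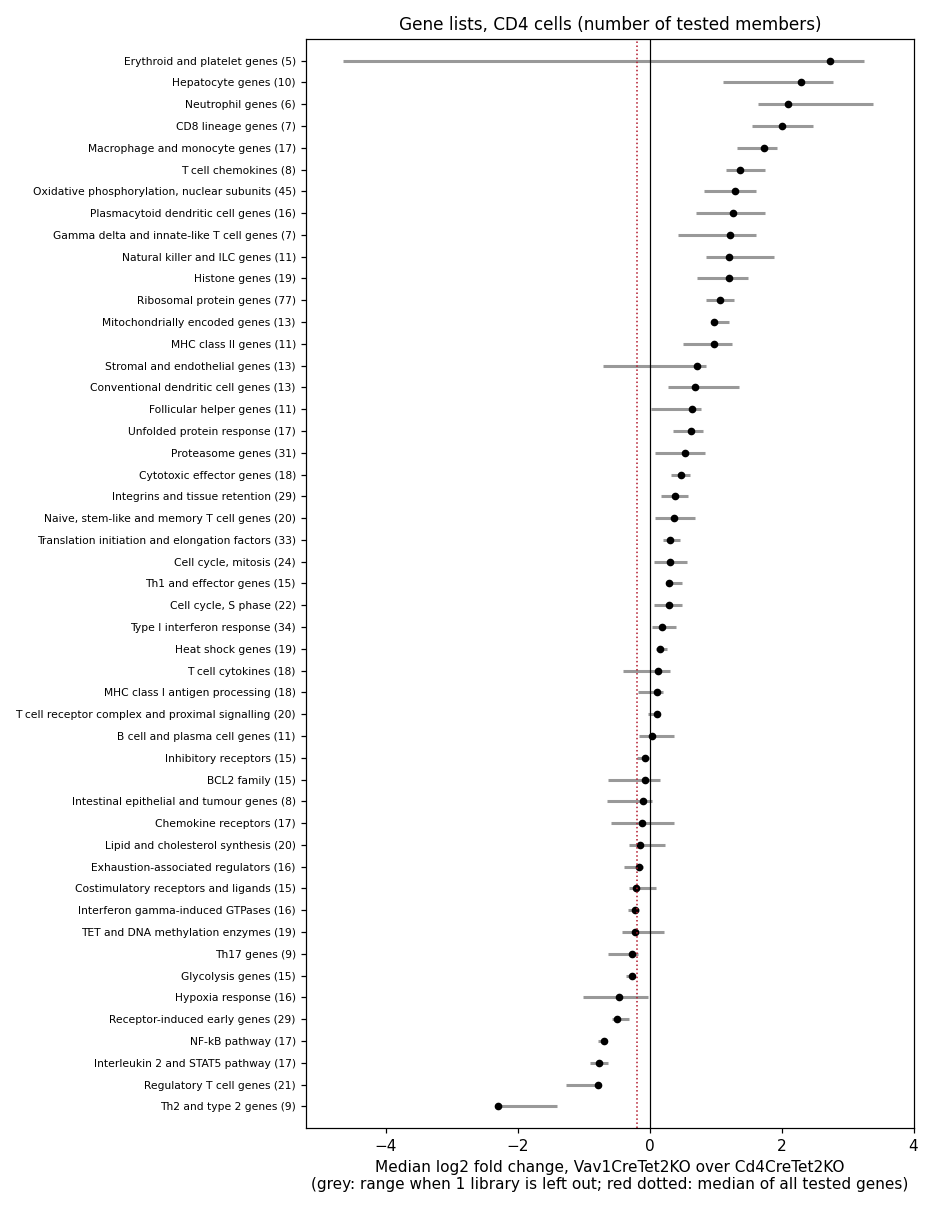
Median log2 fold change of each gene list with at least 5 tested members, with the range when a single knockout library is left out in grey and the median of all tested genes (-0.19) as a dotted line. Ribosomal protein, oxidative phosphorylation and MHC class II genes lie to the right of it, and regulatory T cell, NF-kB and interleukin 2 genes to the left.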

How the data were processed

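The authors deposited a table per cell type. For CD4 cells it gave read counts by gene together with RPKM, and for CD8 cells only RPKM, per the file headers. RPKM divides reads by gene length and library size, and the authors computed it before deposit. Libraries came from a SMARTer Stranded Total RNA-seq Pico kit, per the labels' protocols. The submitters' processing notes name GRCm38 and mm10. Of 25582 gene IDs matched to GENCODE M21 (GRCm38), 551 lay at the same position and 25081 had the same length, so the table's coordinates are printed as given, without a named build; the promoters are GRCm38.p6. Exonic length is the union of annotated exons. No source used here gives the aligner. Among counts of 1 to 20, between 15.2% and 30.8% were odd, so most were even.

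For CD4 counts, filterByExpr (at least 10 counts, at least 15 in total) removed low genes, TMM set the scale, and genes were tested with the quasi-likelihood test of edgeR 4.0.16 (robust fit, R 4.3.3) with all 9 CD4 libraries in 1 fit and Benjamini-Hochberg adjustment at 0.05. The fit was run on simulated counts whose spread was smaller than that of these libraries, so that run does not check the calls made here. Fold changes are Vav1CreTet2KO over Cd4CreTet2KO. Shares of reads were compared by exact permutation test. CD8 RPKM is shown without a test. The members and gene lists were chosen with earlier results of these data known. The rule for named genes took Tet1, Tet2 and Tet3, called members of each list (where none, the 2 of smallest p), called genes of largest change, the 20 of smallest p and a fixed set of markers; H2-Eb1, Rora, Cd83, Irs2, Jak3, Ikzf2, Dusp4, Apoe, Tyrobp, Fcer1g, Cd74 and Ttn were added after their values were seen. Among the called genes, 1 is not reported here. Of the per-sample columns, 18 were not used. Alternatives were DESeq2 1.42.0, limma 3.58.1, other scalings and filters, gene classes left out, each library left out and, chosen after seeing the data, the length trend taken out. Replicate numbers do not tie the knockouts together. The floors cover counting error only, and reads carry no molecular identifiers. Standard errors come from the edgeR fit and include the spread between libraries.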

Additional observations from a re-analysis of the deposited data

Results flagged for a closer look

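Trgc1, a constant segment of the γ chain of the γδ T cell receptor, was picked out because its knockout libraries separated in opposite directions in the 2 cell types. In CD4 cells it had 18.9, 22.6 and 7.56 CPM in Vav1CreTet2KO, against 1.83, 6.20 and 2.14 CPM in Cd4CreTet2KO, a log2 fold change of 2.26 (SE 1.47; edgeR adjusted p = 0.632). In CD8 cells it had 0.0290, 1.60 and 1.55 RPKM in Vav1CreTet2KO, against 1.91 to 5.06 RPKM in Cd4CreTet2KO. The difference between the cell types was not tested, because the tables were normalized apart.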

How the results depend on the processing

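The 9 genes called between the knockouts became 3 with only the 6 knockout libraries in the fit, 2 with a stricter filter, 4 and 3 with limma on log2(RPKM + 1) and log2(RPKM + 0.1), 65 with voom and sample quality weights, 403 with no filter, 516 with DESeq2 and 25 with counts halved. Leaving out 1 library gave 2 to 719. The cause was not tested. Gm5148 and Rps18-ps6 were called in all 23 settings that tested them. No shared litter or day is given for equal replicate numbers, and deviations of same-numbered libraries had correlations from -0.051 to 0.015. The fit with the replicate block called 13 genes, 7 of them among the 9. Not every library correlated best with its own number. With the length trend taken out 6 were called, and B2m stood at -0.012 and Tox at 0.089. Tet1 (main value -0.00) stood at 0.019 with RLE size factors, 0.015 with DESeq2, 0.001 with the stricter filter, 0.018 with counts halved and 0.163 with the length trend out, and Gata2 at 1.293 with voom and 1.68 with the replicate block. Over the named genes and settings, 67 values of 7 called genes lost the call without turning, and 67 uncalled genes passed it in at least 1 setting. Reversals with 1 library left out spanned, over such settings, Acta2 -0.069 to 5.85, Cd4 -0.66 to 0.152, Crtam -1.007 to 5.30, Hbb-bs -4.647 to 10.31, Tcf7 -0.696 to 0.93, Trgc4 -2.399 to 4.04, Gata2 -5.79 to 4.413 and Tet1 -1.78 to 0.634. On protein-coding nuclear genes other than ribosomal ones, the difference in share became 0.00018378 percentage points for B cell genes and 0.044834 for heat shock genes. With 1 library left out it spanned -0.17027 to 0.05424 for heat shock, -0.011066 to 0.0056158 for B cell, -0.0015013 to 0.0023549 for hepatocyte and -0.00045553 to 0.010149 for CD8 lineage genes. Depth limits Vav1CreTet2KO replicate 1, where low genes were often at 0.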
